A study of Rattus norvegicus with 12 samples.

Results

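Erysipelotrichaceae and Erysipelatoclostridiaceae, a pair of closely related families of gut bacteria, were followed in the faeces of rats with and without experimental brain haemorrhage. The members are all amplicon sequence variants (ASVs, exact 16S rRNA gene sequences inferred from the reads) whose deposited lineage names either family. They numbered 126 of the 7240 ASVs in the table, 95 in Erysipelotrichaceae and 31 in Erysipelatoclostridiaceae, and were summed into 16 features at the rank of genus, 14 of them with a name at that rank. Membership rests on the lineage alone and not on any abundance. The study asked whether faecal communities differed among 4 groups of 3 libraries each. Sham rats were sham-operated, and SAH rats carried the subarachnoid haemorrhage model. SAH+Tet rats had the model and received tetrandrine, a calcium channel blocker from a medicinal plant. SAH+Tet+ABX rats had the model, tetrandrine and ABX, a common short form for antibiotics. The sources used here do not give the drugs behind that short form, the doses, the sampling times, or the strain, sex and age of the rats. No group received ABX without tetrandrine, so SAH+Tet+ABX differs from SAH in both agents. Every sample also carries a second treatment label that names a cell differentiation protocol, which does not match faeces and was not used. Nothing in the labels ties a library to a separate animal, so all p-values measure only the spread between these libraries.

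Both families belong to the Firmicutes (Bacillota) and consist largely of anaerobes that live on carbohydrates in the intestine, where they release lactate, acetate or butyrate. In rodents they are known for responding to diet, and some members act on bile acids or lie close to the mucosa of the small intestine. Several of their genera were split off from Clostridium, whose names survive in part in the taxonomy used here. The genus written as Erysipelotrichaceae UCG-003 carries an older placement in its name, because its lineage in these data lies in Erysipelatoclostridiaceae.

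Values are shares, in percent of all reads of a library. The 12 libraries held 211450 to 531426 reads. The 3 SAH+Tet+ABX libraries, SAH 1 and SAH+Tet 3 formed a lower depth class of at most 248285 reads, and the other 7 held at least 448795. Where a library has 0 reads of a taxon, the share could still be up to 0.000565% in the deepest library and 0.00142% in the shallowest, taking 3 reads as the limit. Such limits cover counting error only, since PCR copies are not independent molecules. Bacterial load was not measured, so fewer cells of a taxon and more cells of the others cannot be told apart.

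Erysipelatoclostridiaceae, the smaller family, made up more of the reads in SAH and in SAH+Tet+ABX than it did in Sham or SAH+Tet. Its share was 0.0113%, 0.0319% and 0.0487% in the Sham libraries 1 to 3, 0.559%, 0.311% and 0.336% in SAH, 0.0170%, 0.0339% and 0.0484% in SAH+Tet, and 0.537%, 0.194% and 0.624% with ABX added. Every SAH and SAH+Tet+ABX library lay above every Sham and SAH+Tet library. Sham had a mean of 0.0306% ± 0.0187 (SD, n = 3), SAH of 0.402% ± 0.137, SAH+Tet of 0.0331% ± 0.0157 and SAH+Tet+ABX of 0.452% ± 0.227. An exact permutation test over all 15400 arrangements of the libraries, which compared the 4 groups at once on log2(share + 0.001), gave p = 0.00584 and an adjusted p of 0.0302 over 93 families. Of those 93 families 25.8% passed. The call was lost without the SAH+Tet+ABX libraries (adjusted p = 0.237) and when libraries were permuted within their depth class (adjusted p = 0.0904).

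Pair by pair, edgeR's quasi-likelihood test with Benjamini-Hochberg adjustment put the family higher in SAH than in Sham by a log2 fold change of 4.13 ± 0.74 (SE), with an adjusted p of 0.0463. It was 1 of 2 member families called there, against 2.15% of the 93 families tested. DESeq2 also called it (28.0% of families) and limma on centred log-ratios did not (5.38%). That call lay close to the threshold of 0.05: it was lost when any Sham or SAH library was left out, or SAH+Tet 2, with adjusted p-values of 0.0537 to 0.129. No family of the whole table was called in any of these fits, and the fold change of Erysipelatoclostridiaceae kept its sign in each. Among the libraries of the higher depth class, which lacks SAH 1 and SAH+Tet 3, it was 3.75 with an adjusted p of 0.00312. That smaller fit called 24 of 91 families. In SAH+Tet against SAH the log2 fold change was -3.76 ± 0.73 with an adjusted p of 0.0546 over all libraries, so no member family was called, and 0.0% of all families were. Both families had an unadjusted p below 0.05 there, as 12.9% of families did. DESeq2 called 1 of the 2 (10.8% of all families) and limma 0 (1.08%). Within the higher depth class the same comparison gave -3.80 and an adjusted p of 0.0244, with 1 library fewer in each of the 2 groups. Leaving out Sham 1, which shares the fit, gave an adjusted p of 0.0428. Those fits called 5 of 91 and 2 of 93 families. SAH+Tet and Sham overlapped, and no member family was called between them by edgeR (0.0% of families), DESeq2 (26.9%) or limma (7.53%). Neither had an unadjusted p below 0.05 there, as 23.7% of families did. The family was higher in SAH+Tet+ABX than in SAH+Tet by 4.19 ± 0.86, with an adjusted p of 0.00538. Without SAH+Tet+ABX 3 it was 3.51 and still called. In that comparison 30.1% of families were called and 4.3% were called as higher. DESeq2 called 1 member family (48.4% of families) and limma both (41.9%). Against SAH, SAH+Tet+ABX gave 0.37 ± 0.76 with an adjusted p of 0.726, and no member family was called among the 25.8% that were. DESeq2 called 0 (43.0%) and limma both (34.4%). The fold change turned to -0.25 with depth class as a term.

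Erysipelotrichaceae, the larger family, overlapped between most groups. It made up 3.44%, 2.34% and 2.94% in the Sham libraries, 1.70%, 4.03% and 3.69% in SAH, 1.35%, 2.03% and 0.933% in SAH+Tet, and 0.941%, 3.69% and 1.65% with ABX added. The SAH+Tet libraries lay below the Sham libraries without overlap and overlapped the other groups. No pairwise edgeR test passed (adjusted p from 0.219 to 0.759), and the exact permutation test of the 4 groups gave an adjusted p of 0.304. By mean share over all libraries this family ranked 9th of 188 with 2.39% of reads, and Erysipelatoclostridiaceae ranked 33rd with 0.229%.

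**Figure D1:**
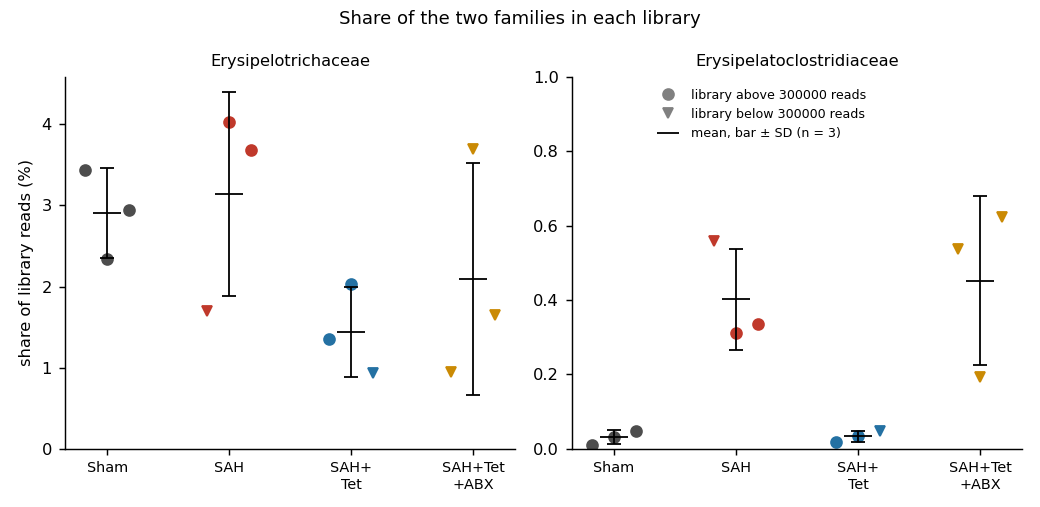
Share of reads (percent, linear axis) of each family in every library of the 4 groups, with a symbol per library (circles above and triangles below 300000 reads) and the mean with bars of 1 SD (n = 3). The 6 SAH and SAH+Tet+ABX points of Erysipelatoclostridiaceae lie between 0.194% and 0.624%, above all Sham and SAH+Tet points, while the groups of Erysipelotrichaceae overlap except for Sham and SAH+Tet.

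Of the 16 genus-level features, 11 had at least 10 reads in at least 3 libraries and were tested over the 12 libraries. The exact permutation test of the 4 groups called 5 of the 11, against 25.6% of the 195 genera tested. These were Erysipelatoclostridium (adjusted p = 0.0111), Candidatus Stoquefichus and the Erysipelotrichaceae without a genus name (both 0.0323), Holdemania (0.0401) and Erysipelotrichaceae UCG-003 (0.0443). Faecalitalea and the [Clostridium] innocuum group, found almost wholly in the SAH+Tet+ABX libraries, reached an exact permutation p of 0.0182, the smallest this test can give for a taxon with reads in 1 group. Their adjusted p was 0.0529, and like Holdemania they passed the filter through the SAH+Tet+ABX libraries alone. Leaving out Sham 3 or SAH 2 reduced the count to 1 and leaving out Sham 2 to 2. It was 3 without SAH+Tet+ABX 1 or 3, SAH+Tet 2, SAH 1, SAH 3 or Sham 1, and 4 without any other library. With libraries permuted within depth classes 1 genus was called, and 0 were called among the 3 groups without ABX, where only 280 arrangements exist.

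Turicibacter, a spore former of the small intestine that can deconjugate bile acids, was the most abundant member genus and was highest in Sham. Its share was 2.01%, 2.08% and 2.20% in Sham, 0.130%, 0.285% and 0.690% in SAH, 0.733%, 1.79% and 0.564% in SAH+Tet, and 0.811%, 1.48% and 0.366% with ABX added. All 3 Sham libraries lay above the other 9, and all 3 SAH libraries lay below Sham without overlap. SAH overlapped SAH+Tet, whose lowest library was at 0.564%. The 4-group permutation test gave an adjusted p of 0.0901. As a part of its family, Turicibacter took 74.0% ± 15.1 (SD, n = 3) of the reads of Erysipelotrichaceae in Sham and 11.2% ± 6.55 in SAH, against 67.6% ± 18.0 in SAH+Tet and 49.5% ± 33.0 with ABX added. The family's mean share was 2.91% ± 0.551 (SD, n = 3) in Sham and 3.14% ± 1.26 in SAH, so groups with close family means had different leading genera.

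Dubosiella, a lactate-producing genus first described in mice, was the leading genus of the family in SAH 2 and SAH 3. Dubosiella reads made up 0.324%, 0.0215% and 0.0444% in Sham, 0.322%, 3.11% and 2.82% in SAH, 0.399%, 0.115% and 0.0312% in SAH+Tet, and 0%, 0.243% and 0.0498% with ABX added. Libraries SAH 2 and SAH 3 stood far above all others, and SAH 1 lay inside the range of Sham. SAH 1 is also the SAH library of the lower depth class. In SAH 2 and SAH 3 the genus took 77.2% and 76.4% of its family, against 19.0% in SAH 1, where Allobaculum led with 36.2% and the unnamed Erysipelotrichaceae followed with 23.4%. The permutation test of the 4 groups did not pass (adjusted p = 0.161).

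The other rodent sugar fermenters, Allobaculum and Faecalibaculum, varied widely between libraries of the same group. Allobaculum, which ferments glucose to lactate and butyrate, was at 0.501%, 0.0277% and 0.0881% in Sham, 0.615%, 0.304% and 0.0887% in SAH, 0.0345%, 0.0248% and 0.133% in SAH+Tet, and 0%, 1.68% and 0.524% with ABX added. Every group overlapped every other, and SAH+Tet+ABX held both the highest library and the one with 0 reads. Its adjusted permutation p was 0.903. Faecalibaculum, a lactate producer, was at 0.190%, 0.0379% and 0.0502% in Sham, 0.231%, 0.109% and 0.00936% in SAH, 0.00393%, 0.00271% and 0.0167% in SAH+Tet, and 0%, 0.0734% and 0.0188% with ABX added. The SAH+Tet libraries lay below all Sham libraries, and the groups together gave an adjusted permutation p of 0.266. SAH+Tet+ABX 1 had 0 reads of Dubosiella, Allobaculum, Faecalibaculum and the unnamed Erysipelotrichaceae at once, while Turicibacter was at 0.811% in the same library.

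Within Erysipelatoclostridiaceae, 3 genera carried nearly all reads, and the mean share of each was lower in Sham and SAH+Tet than in the remaining groups. Candidatus Stoquefichus, a little-studied intestinal genus, made up 0.00726%, 0.0201% and 0.0381% in Sham, 0.173%, 0.103% and 0.135% in SAH, 0.0103%, 0.0211% and 0.0163% in SAH+Tet, and 0.175%, 0.0683% and 0.161% with ABX added. The lowest SAH and SAH+Tet+ABX libraries stood above the highest Sham and SAH+Tet libraries. UCG-003, known from 16S sequences rather than cultures, was at 0%, 0.00461% and 0.000962% in Sham, 0.355%, 0.190% and 0.170% in SAH, 0%, 0.00445% and 0.0308% in SAH+Tet, and 0.260%, 0.0278% and 0.317% with ABX added. Here SAH did not overlap Sham or SAH+Tet, while SAH+Tet+ABX 2 lay below SAH+Tet 3. Erysipelatoclostridium, a genus of sugar fermenters formerly placed in Clostridium, was at 0.00403%, 0.00662% and 0.00846% in Sham, 0.0306%, 0.0164% and 0.0196% in SAH, 0.00480%, 0.00793% and 0.00132% in SAH+Tet, and 0.103%, 0.0944% and 0.135% with ABX added. Its order was SAH+Tet+ABX above SAH above the other groups, with no overlap at either step, while Sham and SAH+Tet overlapped. Candidatus Stoquefichus led its family in Sham with 68.5% ± 8.50 (SD, n = 3) of family reads and took 34.7% ± 4.82 in SAH, where UCG-003 led with 58.4% ± 6.96.

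**Figure D2:**
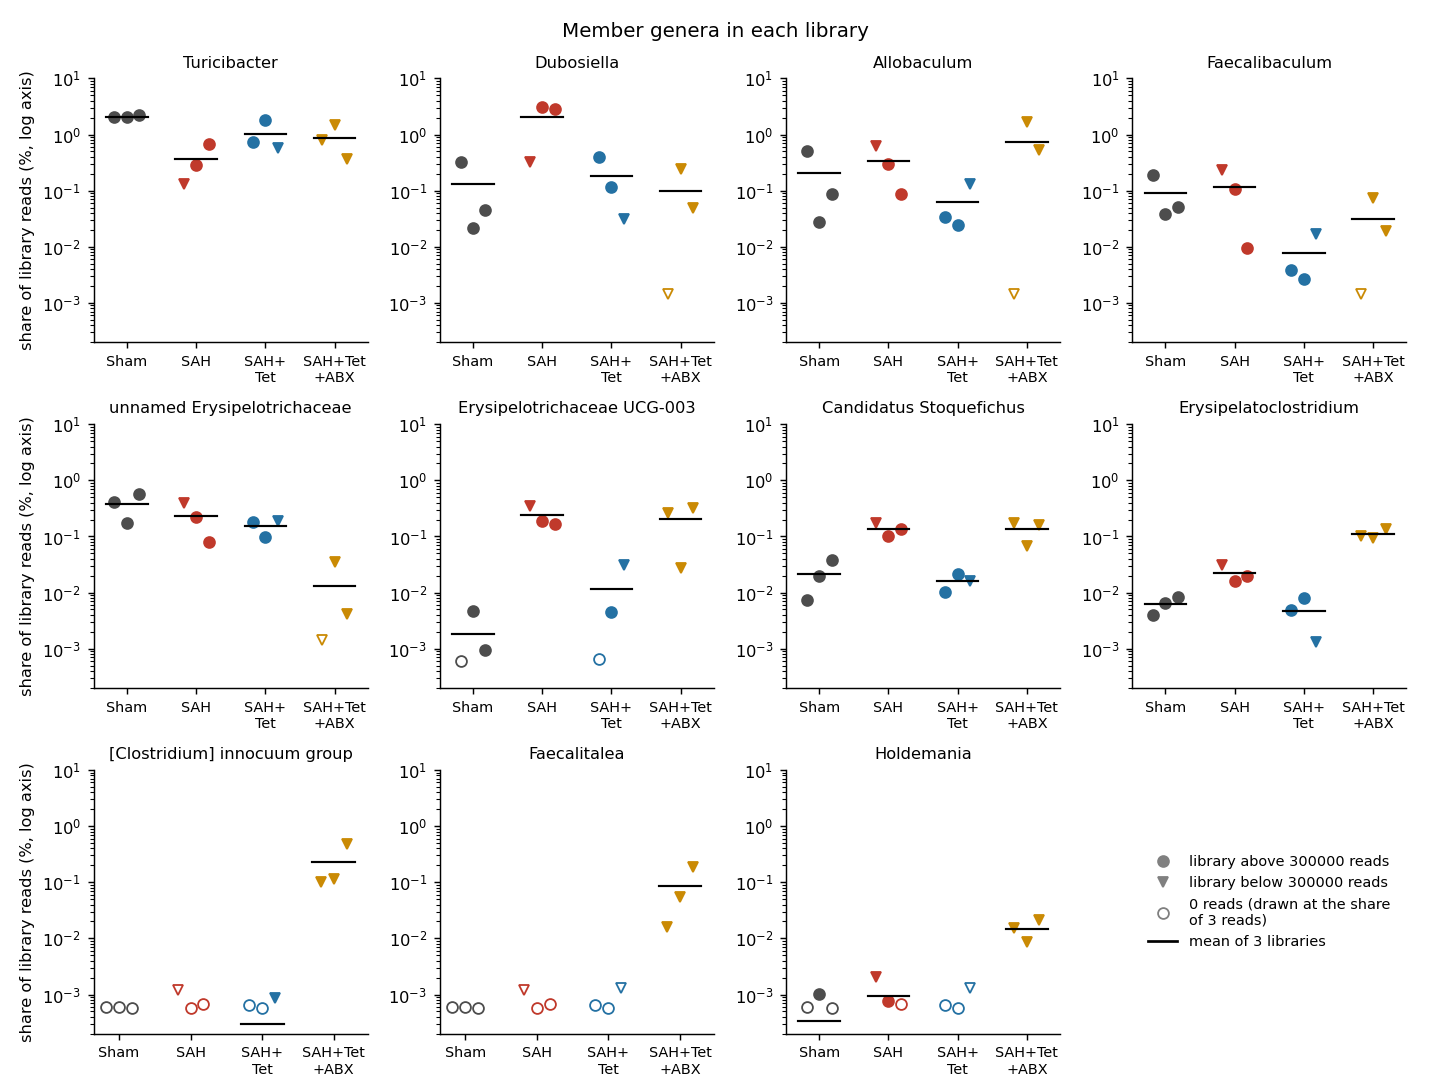
Share of reads (percent, log axis) of the 11 tested member genera in every library, with a symbol per library (circles above and triangles below 300000 reads) and a line at the group mean. Open symbols stand for libraries with 0 reads, drawn at the share that 3 reads would give. Faecalitalea has reads in the 3 SAH+Tet+ABX libraries and in none of the other 9.

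Several genera that were rare or not detected elsewhere were found in the SAH+Tet+ABX libraries. Reads of the [Clostridium] innocuum group, spore-forming intestinal bacteria that can act as opportunists, numbered 210, 268 and 1156 in SAH+Tet+ABX (0.0993%, 0.114% and 0.472%), 2 in SAH+Tet 3 and 0 in the other 8 libraries. Faecalitalea, a butyrate-producing genus, had 34, 129 and 464 reads in SAH+Tet+ABX (0.0161%, 0.0551% and 0.189%) and 0 in the other 9. Holdemania, an anaerobe of the large intestine, had 32, 20 and 52 reads in SAH+Tet+ABX (0.0151%, 0.00854% and 0.0212%). It had 5 reads in Sham 2, 5 in SAH 1, 4 in SAH 2 and 0 in the other 6. For these 3 genera all SAH+Tet+ABX libraries stood above all others. They passed the filter through those libraries alone, so high values there were a condition of their being listed. SAH+Tet 3 and SAH 1, the other libraries of the lower depth class, held at most 5 reads of any of them. Every SAH+Tet+ABX library lies in that class, so ABX and depth class cannot be told apart. With depth class as a term, none of the 3 genera was called against SAH+Tet or against SAH.

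Erysipelotrichaceae without a genus name showed the opposite order. They made up 0.409%, 0.173% and 0.560% in Sham, 0.397%, 0.218% and 0.0784% in SAH, 0.179%, 0.0964% and 0.187% in SAH+Tet, and 0%, 0.0354% and 0.00408% with ABX added. All SAH+Tet+ABX libraries lay below the other 9. Lower values with ABX were common in the whole table, where the median log2 fold change against SAH+Tet was -1.67 over 195 genera. Among the 5 features that did not reach the filter, the unnamed Erysipelatoclostridiaceae were at 0% in Sham and had reads in 2 SAH, 1 SAH+Tet and 2 SAH+Tet+ABX libraries, up to 0.0118%. Dielma, UCG-004, Erysipelothrix and Holdemanella stayed at or below 0.00252% in every library.

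**Figure D3:**
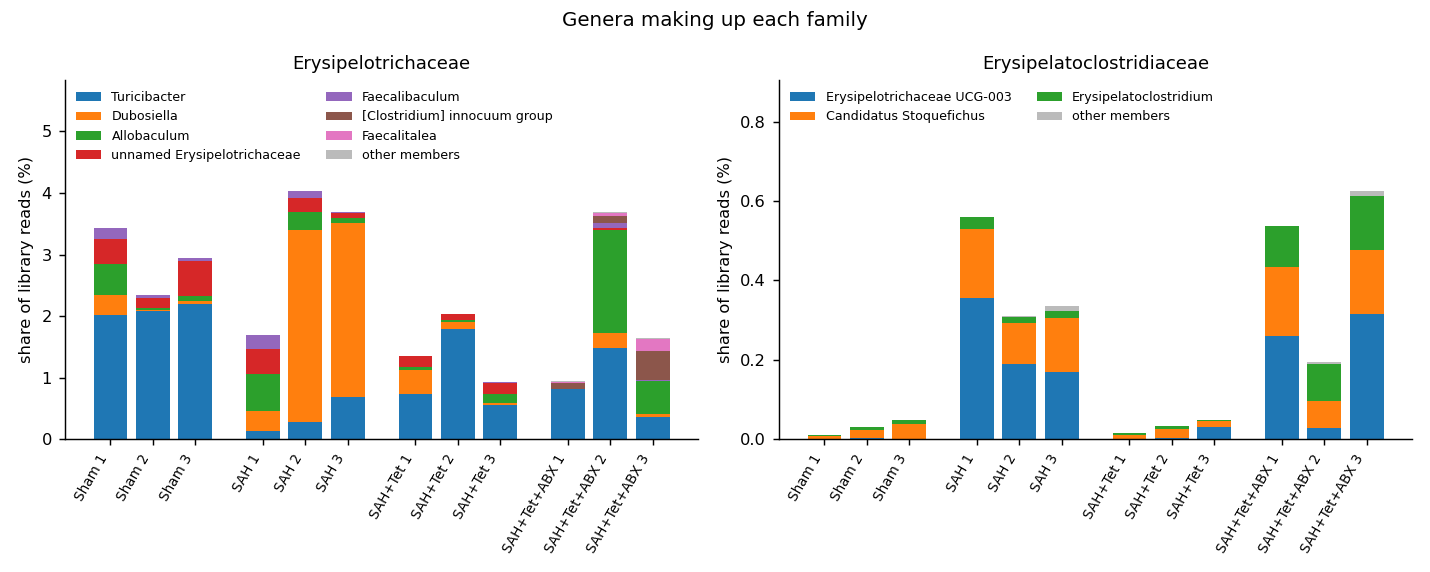
Make-up of each family by genus, as a stacked bar per library in percent of all reads of the library. Turicibacter fills 58.6% to 88.8% of the Sham bars of Erysipelotrichaceae and 7.07% to 18.7% of the SAH bars, where Dubosiella fills 77.2% and 76.4% of libraries 2 and 3.

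The comparison of SAH with Sham asks how the haemorrhage model differs from surgery alone. No member genus was called by edgeR at an adjusted p below 0.05, and neither was any of the 187 genera tested in the fit of the 9 libraries without ABX (0.0%). Of the 8 member genera tested, 5 had an unadjusted p below 0.05, against 29.9% of all genera. DESeq2 called 5 of the 8 (27.8% of all genera) and limma on centred log-ratios 1 (4.81%). The groups did not overlap for 4 of the 8, against 35.8% of all genera: Candidatus Stoquefichus, Erysipelatoclostridium and UCG-003 were higher in SAH and Turicibacter lower. The edgeR log2 fold changes were 3.06 ± 0.72 (SE) for Candidatus Stoquefichus (adjusted p = 0.114), 7.42 ± 2.31 for UCG-003 (0.135) and 2.19 ± 0.79 for Erysipelatoclostridium (0.136). Dubosiella was at 4.15 ± 1.51 (0.136) and Turicibacter at -2.28 ± 0.73 (0.135). All 5 kept their sign when any single library was left out, with adjusted p-values of 0.0685 to 0.296. The fold changes moved with the library left out, from 3.50 to 6.14 for Dubosiella, from 6.65 to 9.13 for UCG-003 and from -2.92 to -2.03 for Turicibacter. Depth class as a term brought 2 calls among the 8 members, Candidatus Stoquefichus and Dubosiella, both with an adjusted p of 0.0383. In that fit 29 of all 187 genera were called. The median log2 fold change was 1.60 over the 8 member genera and 0.22 over all 187.

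The comparison of SAH+Tet with SAH asks what differed when rats with haemorrhage received tetrandrine. It shares the SAH libraries with the comparison above, so a genus that is high in SAH differs in both, and the values are given side by side only. By edgeR 0 of 8 member genera were called, as were 0 of 187 genera (0.0%), and 5 had an unadjusted p below 0.05 (19.8% of all genera). DESeq2 called 4 (17.1%) and limma 0 (0.535%). Candidatus Stoquefichus, Erysipelatoclostridium and UCG-003 lay lower in SAH+Tet without overlap, 3 of 8 members against 24.1% of all genera. Their log2 fold changes were -3.38 ± 0.73 (SE; adjusted p = 0.0988), -2.42 ± 0.80 (0.182) and -4.90 ± 2.05 (0.232). Faecalibaculum was at -4.50 ± 1.41 (0.181) and Dubosiella at -3.75 ± 1.48 (0.217), and both overlapped between the groups. With any single library left out, Faecalibaculum ranged from -5.45 to -2.86, Dubosiella from -4.88 to -3.16, and UCG-003 from -6.88 to -3.83. No adjusted p of these 5 genera fell below 0.0803 in those fits. Member genera had a median of -3.17, and all 187 genera one of 0.08.

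Between SAH+Tet and Sham, which asks whether treated rats still differed from sham-operated ones, 0 of 8 member genera and 0.0% of all genera were called by edgeR. Faecalibaculum had an unadjusted p below 0.05, 1 of 8 against 18.2% of all genera, with a log2 fold change of -3.80 ± 1.36 (SE; adjusted p = 0.209) that ranged from -4.83 to -2.28 with a library left out. DESeq2 called 1 member genus (17.6% of all genera) and limma 0 (0%). Faecalibaculum and Turicibacter lay lower in SAH+Tet without overlap, 2 of 8 against 23.5%. With depth class as a term Faecalibaculum passed, at -4.78 and an adjusted p of 0.0429, 1 of 8 member genera against 26 of all 187. For Candidatus Stoquefichus, Erysipelatoclostridium and UCG-003, the groups overlapped.

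**Figure D4:**
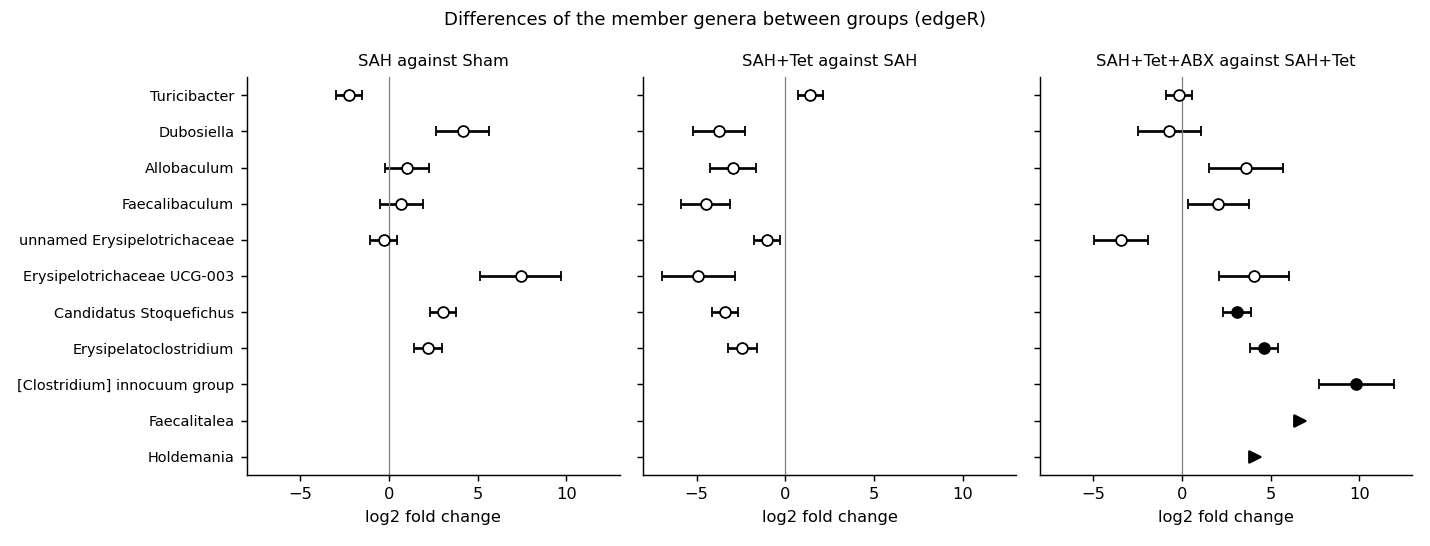
Fitted log2 fold change of each tested member genus in 3 panels, for the haemorrhage model against Sham, tetrandrine against the model alone, and ABX added to tetrandrine, with bars of 1 SE on either side (from the F statistic). Filled points passed edgeR at an adjusted p below 0.05, open points did not, and solid triangles are lower bounds against a group with 0 reads, while the point of the [Clostridium] innocuum group rests on 2 reads in SAH+Tet. Filled symbols occur for 5 genera in the comparison with ABX and for 0 in the others.

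Calls by edgeR among member genera were most numerous where ABX was added to tetrandrine, and so were calls among all genera. Pairs without ABX came from a separate fit of 9 libraries, so their counts are not directly comparable with those given here. In SAH+Tet+ABX against SAH+Tet, 5 of 11 member genera rose by edgeR and 0 fell, while 36.9% of the 195 genera tested were called and 9.23% were called as higher. Of the 5, Faecalitalea, Holdemania and the [Clostridium] innocuum group had 10 reads or more in SAH+Tet+ABX libraries only. They passed the filter through that group, so having reads there was a condition of being tested and counted. Erysipelatoclostridium rose by a log2 fold change of 4.63 ± 0.79 (SE; adjusted p = 0.00190) and Candidatus Stoquefichus by 3.12 ± 0.78 (0.0149). Faecalitalea was at least 102-fold higher (0.0177) and Holdemania at least 17.6-fold higher (0.0185), taking 3 reads per library as the limit for the SAH+Tet libraries with 0 reads. Without SAH+Tet+ABX 3, which held most of its reads, the bound for Faecalitalea was 41.8-fold. For the [Clostridium] innocuum group (adjusted p = 0.0177), the mean shares had a ratio of 779. Pooled over the libraries of each group, 1634 reads stood against 2, a ratio of pooled shares of 1422 with an exact 95% counting interval of 393 to 11755. That interval treats reads as independent and holds no spread between libraries, while 1156 of the 1634 reads came from SAH+Tet+ABX 3. The median log2 fold change was 3.59 over the 11 member genera and -1.67 over all 195. The member median includes the fitted values of the genera that passed the filter through SAH+Tet+ABX alone. The unnamed Erysipelotrichaceae were at -3.43 ± 1.51 (0.0917), which did not pass. In 6 of 11 member genera the groups did not overlap, against 41.5% of all genera. These were the 5 that rose and the unnamed Erysipelotrichaceae. DESeq2 called 7 member genera (50.3% of all genera), among them the unnamed Erysipelotrichaceae as lower, and limma 6 (36.9%). Both added UCG-003 as higher.

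These calls depend on few libraries. Without SAH+Tet+ABX 1 or SAH+Tet+ABX 3 the count was 2, and without SAH+Tet+ABX 2 it was 3. The third call there was the unnamed Erysipelotrichaceae, lower at -6.07 with an adjusted p of 0.0337. Faecalitalea, Holdemania and the [Clostridium] innocuum group, whose reads lie almost wholly in those libraries, then have too few libraries with reads to be tested. Candidatus Stoquefichus and Erysipelatoclostridium passed whichever single library was left out, and the fold change of Erysipelatoclostridium was 5.30 without SAH+Tet 2. With depth class as a term the count was 1, Erysipelatoclostridium (4.88, adjusted p = 0.00911), while 45 of all 195 genera were called. All SAH+Tet+ABX libraries lie in the lower depth class, so SAH+Tet 3 is the single SAH+Tet library that can be compared within it. That library held 0.00132% Erysipelatoclostridium and 0.0163% Candidatus Stoquefichus, below the lowest SAH+Tet+ABX values of 0.0944% and 0.0683%.

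Against SAH, SAH+Tet+ABX was higher in 3 of 11 member genera, while 27.7% of all genera were called and 5.13% were called as higher. Here too, Faecalitalea, Holdemania and the [Clostridium] innocuum group passed the filter through the SAH+Tet+ABX libraries alone. The [Clostridium] innocuum group was at least 281-fold higher (adjusted p = 0.0134) and Faecalitalea at least 107-fold higher (0.0205), and Erysipelatoclostridium rose by a log2 fold change of 2.14 ± 0.71 (SE; 0.0461). Without SAH+Tet+ABX 3 the bounds were 131-fold and 43.7-fold. The unnamed Erysipelotrichaceae were at -4.29 ± 1.57 (0.0640), which did not pass. DESeq2 called 5 member genera (44.6% of all genera), with Dubosiella and the unnamed Erysipelotrichaceae as lower, and limma 5 (31.8%), with Holdemania and Turicibacter as higher. Erysipelatoclostridium lost its call in 9 of 12 fits that left out a library, with adjusted p-values up to 0.134. The count was 0 without SAH+Tet+ABX 1 or 3. Without SAH+Tet+ABX 2 it was 1, and this was none of the 3 above but the unnamed Erysipelotrichaceae, lower at -6.93 with an adjusted p of 0.0274. The count was 2 without any Sham library, SAH 2, SAH 3 or SAH+Tet 1. With depth class as a term it was 0, while 35 of all 195 genera were called. Candidatus Stoquefichus and UCG-003, higher than in SAH+Tet in most libraries, overlapped the SAH range. The groups were apart for 6 of 11 member genera, against 35.4% of all genera: Erysipelatoclostridium, Faecalitalea, Holdemania and the [Clostridium] innocuum group were higher in SAH+Tet+ABX, and Dubosiella and the unnamed Erysipelotrichaceae lower. The median log2 fold change was -2.08 over all 195 genera and 0.97 over the 11 members, again with the genera that passed the filter through SAH+Tet+ABX alone.

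In Candidatus Stoquefichus and Erysipelatoclostridium, the sequence variant with the highest mean share differed between groups, though it did not lead in every library. Variants are numbered within a genus by falling mean share. The trait was not particular to these genera. Allobaculum was led by variant 2 in Sham (54.0%) and SAH (43.0%) and by variant 1 in SAH+Tet (49.5%) and SAH+Tet+ABX (58.7%). The unnamed Erysipelotrichaceae were led by variant 1, but in SAH+Tet+ABX by variant 5 (85.0%). In the 4-group edgeR test, 7 of the 33 member ASVs tested were called, each with an adjusted p of 0.0410, against 18.0% of the 2394 ASVs tested. DESeq2 called 10 (23.1%) and limma 13 (32.5%). The 7 were variants 1 and 2 of the unnamed Erysipelotrichaceae, variants 1 and 3 of Candidatus Stoquefichus, and variant 1 of Erysipelatoclostridium, of Faecalitalea and of the [Clostridium] innocuum group. Faecalitalea variant 1, [Clostridium] innocuum group variant 1 and Candidatus Stoquefichus variant 3 passed the filter through the SAH+Tet+ABX libraries alone. Candidatus Stoquefichus variant 1 passed it through the SAH libraries alone. Without any 1 of the Sham or SAH+Tet+ABX libraries, or without SAH 2, 0 of the 7 were called. The count was also 0 with depth class as a term and in the 3 groups without ABX. In all of these fits no ASV of the whole table was called.

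By mean share of the group, Candidatus Stoquefichus had variant 4 as its leader in Sham and SAH+Tet, variant 1 in SAH and variant 2 in SAH+Tet+ABX. Variant 4 accounted for 100% of the genus in Sham and 98.4% in SAH+Tet, with 36, 100 and 198 reads in Sham and 47, 105 and 37 in SAH+Tet. Variant 1 accounted for 92.8% in SAH, with 421, 532 and 500 reads there, 4 reads in SAH+Tet 2 and 0 in the other 8 libraries. In SAH the reads of variant 4 numbered 9, 7 and 66, so the Sham form was present beside the SAH form. The SAH+Tet+ABX libraries, which matched SAH in genus share, had 0 reads of variant 1. Their reads were variant 2 (296, 13 and 143), variant 3 (69, 110 and 227) and rarer ones. Variant 2 thus led in SAH+Tet+ABX 1 alone, and variant 3 led in SAH+Tet+ABX 2 and 3. Variant 3 was not detected in the other 9 libraries, and variant 2 had 39 reads in SAH 3. The similar genus shares of SAH and SAH+Tet+ABX thus came from variants that differ between these groups.

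Erysipelatoclostridium had different leading variants by mean share as well, but they did not lead in every library. Variant 4 led in Sham (89.6% of the genus, with 16, 29 and 42 reads) and in SAH+Tet (70.6%, with 18, 31 and 0 reads). Variant 5 led in SAH with 38.8% of the genus and 46, 39 and 0 reads, so not in SAH 3. In SAH+Tet+ABX variant 1 led by mean share with 61.0% and 76, 90 and 314 reads, but among single libraries only in SAH+Tet+ABX 3. It also had 16 and 37 reads in SAH 2 and SAH 3, and 0 in Sham and SAH+Tet. Variant 2 had 113 reads in SAH+Tet+ABX 1, where it led, and none in the other 11 libraries. Variant 3 had 98 and 10 reads in SAH+Tet+ABX 2 and 3 and led in SAH+Tet+ABX 2. UCG-003 differed from these genera, because its variant 1 led in every group and held 94.4% of all reads of the genus.

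**Figure D5:**
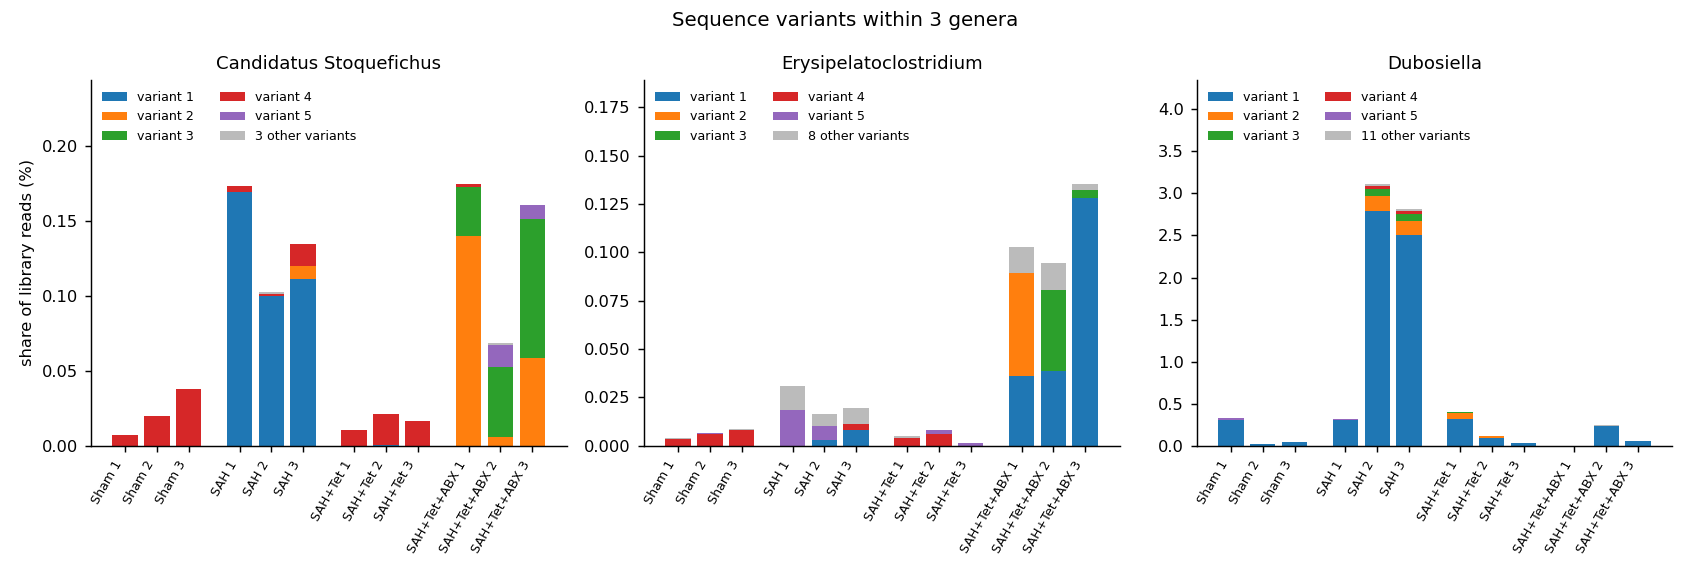
Share of reads (percent) of the sequence variants of Candidatus Stoquefichus, Erysipelatoclostridium and Dubosiella in every library, stacked by variant, with an axis of its own for each genus. Candidatus Stoquefichus variant 1 fills the SAH bars, variant 4 the low Sham and SAH+Tet bars, and variants 2 and 3 most of the SAH+Tet+ABX bars.

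The larger genera rested on few variants. Turicibacter variant 1 held 98.6% of the reads of its 20 variants and led in all 4 groups. Faecalibaculum variant 1 held 99.9% of its genus. Dubosiella variant 1 held 89.3%, and 14 of the 16 Dubosiella variants had reads in SAH, against 2 in Sham and 3 in each of the other groups. The genus also had 29977 reads in SAH, against 1946 in Sham, 2495 in SAH+Tet and 692 with ABX added. Variants 8 to 10 and 12 to 16 had at most 11 reads each, all in a single SAH library. Minor variants 2 to 4 stood at close ratios to variant 1 in libraries of the same group that held them. Variant 2 was at 6.35% and 6.65% of variant 1 in SAH 2 and SAH 3, and at 20.4% and 19.7% in SAH+Tet 1 and SAH+Tet 2. Variant 3 was at 2.95% and 3.14% of variant 1 in SAH 2 and SAH 3, and variant 4 at 1.51% and 1.56%. SAH 1 had 0 reads of these 3 minor variants. Allobaculum was less uniform: variant 1 held 40.5% of its reads, and variant 3 had 0 reads in Sham but reached 0.0934% in SAH 1 and 0.227% in SAH+Tet+ABX 2.

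Among the unnamed Erysipelotrichaceae, variants 1 and 2 had reads in all 9 libraries without ABX and 0 in the 3 with it. Variant 1, whose species label reads uncultured Allobaculum, was at 0.301%, 0.0758% and 0.425% in Sham, 0.328%, 0.151% and 0.0230% in SAH, and 0.0679%, 0.0271% and 0.105% in SAH+Tet. Variant 2 was highest in Sham 2 at 0.0654% and lay between 0.0150% and 0.0279% in the other 8. These 2 variants are 1.59% of the 126 member ASVs, and 1.74% of all ASVs showed the same pattern. Not all unnamed variants were lower with ABX. Variant 5 was at 0%, 0.0307% and 0.00286% in the SAH+Tet+ABX libraries, and its highest value elsewhere was 0.0154% in SAH+Tet 3.

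Most member ASVs were scarce. Reads in a single library were the case for 69 of the 126 (54.8%), against 47.9% of all ASVs, and 1 member ASV had reads in all 12. The test filter was passed by 33 (26.2%), against 33.1% of all ASVs. Scaled to 211450 reads, the number of member ASVs per library was 24.8 ± 2.20 (SD, n = 3) in Sham and 33.0 ± 6.93 in SAH, against 24.4 ± 3.17 in SAH+Tet and 25.6 ± 12.5 with ABX added. For all ASVs these numbers were 2271 ± 61.9, 1756 ± 522, 2066 ± 642 and 573 ± 117. The SAH+Tet+ABX libraries thus held fewer ASVs in all, while the member ASVs ranged from 14.0 to 38.9 and spanned the values of the other groups. In Erysipelatoclostridiaceae the numbers were 4.04 ± 0.999 in Sham and 8.02 ± 2.66 in SAH, against 4.51 ± 1.33 in SAH+Tet and 9.30 ± 2.25 with ABX added. Any reads in SAH+Tet+ABX were found for 47 member ASVs (37.3%) and for 1101 of all ASVs (15.2%). Of these, 25 member ASVs and 518 of all ASVs had reads in no other group, which is 19.8% and 7.16% of the full lists. The higher member share is therefore not a measure of being confined to that group.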

How the data were processed

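Per the file headers, the authors deposited raw read counts, 1 row per ASV with its lineage. Per the submitters' processing notes, fastp (read trimming) and cutadapt (primer removal) were used. The sources used here name no versions, no denoiser or chimera filter, and no primers, 16S region or reference taxonomy. These steps set how many variants are reported and how deep names go, and shares also depend on 16S copies per genome, which were not corrected.

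The series table matched the per-sample tables in all 12 libraries. The 2 ASVs of Eukaryota were left out, which left 7238 ASVs, 378 genus-level features and 188 families. Reads without a genus name were summed as "unnamed". Members, lists and tests were chosen with earlier results of these data known. Sequences are not printed because the tables used here pair ASVs with lineages alone.

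edgeR 4.0.16 in R 4.3.3 (quasi-likelihood, TMM scaling, group as the only term) was run on the whole table at each rank. The filter was 10 reads or more in 3 libraries or more. Comparisons without ABX came from a fit of 9 libraries, those with ABX from all 12. P-values were adjusted by Benjamini-Hochberg over every feature of a fit, with a threshold of 0.05. The SE is the absolute log2 fold change divided by the square root of F, not a fitted standard error. The 4-group test on shares was a two-sided exact permutation test of the F statistic. With 3 libraries a group, an exact test of a pair cannot pass 0.05. Fold changes of genera are printed where the unadjusted p was below 0.05. Genera with enough reads are given in all libraries, and ASVs are named among the 12 highest in mean share, as leading variants or as called. Ratios of minor to leading variants, and variants 2, 3 and 5 of Erysipelatoclostridium, were chosen after their values were seen. Scripts were tested on simulated data. Alternatives were DESeq2 1.42.0, limma 3.58.1 on centred log-ratios, library-size scaling, no filter, the pair alone, replicate number or depth class (at 300000 reads) as a term, and leaving out each library.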

Additional observations from a re-analysis of the deposited data

How the results depend on the processing

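Replicate numbers did not pair the libraries: same-numbered libraries of 2 groups correlated from -0.61 to 0.55 over 18 pairs, with 4 above 0.1. With the replicate block the number of member genera called fell from 5 to 3 for SAH+Tet+ABX against SAH+Tet, from 3 to 1 for SAH+Tet+ABX against SAH and from 5 to 0 in the 4-group test. The member families called for SAH against Sham fell from 1 to 0, and the 4-group adjusted p of Erysipelatoclostridiaceae was 0.0840.

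Counts of member genera called were, for SAH against Sham (0), 5 with DESeq2, 1 with limma and 2 with depth class as a term. For SAH+Tet against SAH (0) DESeq2 called 4, and for SAH+Tet against Sham (0) DESeq2 and the depth term called 1 each. For SAH+Tet+ABX against SAH+Tet (5) the depth term left 1, and for SAH+Tet+ABX against SAH (3) it left 0, while DESeq2 and limma called 5 each. The 4-group test (5) called 3 with a constant of 0.0001, 1 on shares without a logarithm, 1 without a filter, 1 within depth classes and 0 without ABX. Member families called were 0 with limma and 0 without a filter for SAH against Sham (1). For SAH+Tet against SAH (0) there was 1 with DESeq2, library-size scaling, the depth term or the higher depth class. limma called 2 for SAH+Tet+ABX against SAH+Tet (1) and against SAH (0). The 4-group adjusted p of Erysipelatoclostridiaceae was 0.103 without a logarithm, 0.0610 without a filter, 0.0904 within depth classes and 0.237 without ABX. Member ASVs called in the 4-group test (7) were 13 with limma, 24 without a filter, 0 with the depth term and 0 without ABX.

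Leaving out 1 library gave 2 to 5 and 0 to 3 member genera for SAH+Tet+ABX against SAH+Tet and SAH, and 1 to 4 in the 4-group test. It gave 0 to 1 families for SAH against Sham and for SAH+Tet against SAH, and 0 to 7 ASVs.

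Directions turned for uncalled family fold changes. Erysipelotrichaceae gave -0.59 for SAH against Sham with limma, and 2.40 with limma, 0.06 in the pair alone and 0.14 with the depth term for SAH+Tet+ABX against SAH, with -1.04 to 0.23 when a library was left out. Erysipelatoclostridiaceae gave -0.29 with limma, -0.047 with the depth term and -0.046 in the higher depth class for SAH+Tet against Sham, with -0.047 to 0.92 when a library was left out. For SAH+Tet+ABX against SAH it gave -0.25 with the depth term and -0.19 to 0.72 when a library was left out. No genus fold change printed in the report turned its sign in any alternative run. Depth limits the rare genera: Holdemania rests on at most 52 reads in a library. The cause of these changes was not tested.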
